A study of Homo sapiens with 9 samples.

Results

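The 10 genes at the top of the pathway to STAT5 were measured in the human acute myeloid leukaemia line MV4-11: the 4 Janus kinases JAK1, JAK2, JAK3 and TYK2, the receptor tyrosine kinases FLT3 and KIT, and the cytokine receptor chains CSF2RA, CSF2RB, CSF3R and IL3RA. They were chosen by symbol and not by a rule on measured values, though earlier results of these data were known. All 10 had an entry among the 26929 genes of the table that the authors deposited. Reads were counted for 8 of them, and all 8 had a mean normalised count of at least 5, the level needed for testing. CSF2RA and IL3RA were at 0 in every library.

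MV4-11 is an established leukaemia line that carries an internal tandem duplication of FLT3 (FLT3-ITD) and an MLL fusion, and the control cells carry both as well. Cells received the vehicle DMSO, JPX-0700 or JPX-0750 for 24 h, with 3 libraries per group and 9 in all. The series title presents the compounds as degraders of STAT3 and STAT5, and no dose is given in the labels. The comparisons therefore ask how RNA of the kinases and receptors that lie upstream of these factors differed after exposure to each compound, in 1 cell line at 1 time. Nothing in the labels says that replicates were separate cultures, so p-values measure only the spread between these samples.

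JAK kinases are cytoplasmic tyrosine kinases bound to the inner tails of cytokine receptors. When a ligand brings receptor chains together, the kinases phosphorylate each other and the receptor, STAT proteins dock there, are phosphorylated in turn, form dimers and act in the nucleus. CSF2RA and IL3RA bind GM-CSF and IL-3 respectively and share the signalling chain CSF2RB, which works through JAK2, while CSF3R is the receptor for G-CSF. FLT3 and KIT have a kinase domain of their own and bind FLT3 ligand and stem cell factor. The tandem duplication makes FLT3 active without ligand, and in myeloid leukaemia the mutant receptor is known for driving STAT5 phosphorylation.

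Promoters of 9 of the 10 genes were found in the RefSeq table for GRCh38.p14, 17 windows in all, each running from 250 bases before the annotated start to 50 bases after it. They were searched on both strands for the STAT-type motif TTCNNNGAA, the RUNX-type motif TGTGGT and the ETS-type motif GAGGAA. The promoters of FLT3 and KIT are shown because all 6 treated libraries lay below all DMSO libraries for these receptors once reads were scaled to a common library total, and that of IL3RA because it was the member whose promoter held TTCNNNGAA. Sequences are printed 5′ to 3′ on the strand of the gene, with every motif match in capitals.
FLT3, chr13:28100527-28100826, minus strand: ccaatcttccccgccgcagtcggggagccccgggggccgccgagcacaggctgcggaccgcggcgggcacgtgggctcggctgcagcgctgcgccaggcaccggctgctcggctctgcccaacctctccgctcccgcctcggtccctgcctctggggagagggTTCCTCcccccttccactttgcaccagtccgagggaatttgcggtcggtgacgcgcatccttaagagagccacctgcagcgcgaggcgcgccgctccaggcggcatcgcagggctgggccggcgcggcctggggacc
KIT, chr4:54657707-54658006, plus strand: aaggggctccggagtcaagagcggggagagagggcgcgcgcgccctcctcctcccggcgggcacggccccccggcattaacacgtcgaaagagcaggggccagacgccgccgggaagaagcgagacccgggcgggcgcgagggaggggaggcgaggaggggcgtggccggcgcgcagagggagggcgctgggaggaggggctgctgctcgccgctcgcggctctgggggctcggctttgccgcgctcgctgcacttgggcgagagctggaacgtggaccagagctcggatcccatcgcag
IL3RA, chrX:1336535-1336834, plus strand: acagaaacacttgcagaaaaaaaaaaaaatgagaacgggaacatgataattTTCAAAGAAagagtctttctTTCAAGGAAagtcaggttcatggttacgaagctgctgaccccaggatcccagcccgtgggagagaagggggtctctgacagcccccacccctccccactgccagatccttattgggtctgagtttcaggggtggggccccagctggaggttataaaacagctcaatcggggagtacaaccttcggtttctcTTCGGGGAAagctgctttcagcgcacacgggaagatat

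The FLT3 and KIT windows are rich in G and C, which make up 74.0% and 74.3% of their bases. In FLT3 the capitals mark the reverse complement of GAGGAA, whose first base lies 87 bases before the start. The KIT window held none of the 3 motifs. In IL3RA the 3 matches to TTCNNNGAA begin 199 and 179 bases before the start and 12 bases after it, and the copies on X and Y are identical over the window. Among all 35116 promoters of the same table, TTCNNNGAA occurred in 7.66%, TGTGGT in 13.1% and GAGGAA in 27.9%. Among the 17 member windows these motifs occurred in 2 (the X and Y copies of IL3RA), 1 and 6. A match is a run of letters and does not show that a factor binds there.

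Libraries were made with a kit that reads the 3′ end of polyadenylated RNA, and held between 726043 and 6305586 reads on genes. The DMSO libraries were the deepest, with at least 2701317 reads, and the treated libraries held at most 1941860. The worth of 1 read lay between 0.383 and 4.61 normalised counts. The fewest genes within each group were detected in replicate 1 of DMSO and replicate 3 of each compound (9816 for DMSO, 10027 for JPX-0700 and 10407 for JPX-0750, against at least 13068 in every other library), so every fit was repeated leaving these 3 out. The nuclear RNA MALAT1 took 0.176 to 0.547% of reads with DMSO, 3.62 to 7.85% with JPX-0700 and 3.49 to 8.92% with JPX-0750. In the markers of the line, the summed normalised count of 11 myeloid genes was 5490 to 9205 with DMSO, 2728 to 4696 with JPX-0700 and 2211 to 4002 with JPX-0750. LYZ, which encodes lysozyme, made up most of that sum, with means of 5336, 1868 and 1557, while MEIS1 had higher means with the compounds (162 in DMSO, 392 under JPX-0700, 424 under JPX-0750), and SPI1 had means of 175, 203 and 105. CD33, PTPRC, SPI1 and CEBPA were present in every group, whereas CD14 was at 0. The highest group means of MPO, AZU1 and HOXA9 were only 8.98, 1.52 and 2.78. ITGAM was also low, with means of 4.38 in DMSO, 12.7 under JPX-0700 and 12.9 under JPX-0750. Markers of other cell types had smaller sums: those for 8 T and NK cell genes reached at most 88.9, for 4 B cell genes 27.3, for 4 erythroid genes 3.42, for 4 epithelial genes 53.7 and for 3 fibroblast genes 108. The fibroblast gene COL1A1 was at 0 in every DMSO library and had reads in every treated library. Its normalised counts ran from 5.56 to 23.0 under JPX-0700 (10 reads) and from 4.55 to 108 under JPX-0750 (71 reads). KLRD1, HBB, EPCAM, KRT19 and DCN were at 0 throughout, and the part of depth, MALAT1 and the myeloid sum in the results below was not tested.

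None of the 8 tested members passed the threshold of an adjusted p under 0.05 with either compound, by limma with Benjamini-Hochberg adjustment over 12301 genes, and none did by limma-voom. The background of genes called was 5.77% with JPX-0700 (649 genes, 5.28%, rose and 61, 0.496%, fell) and 3.98% with JPX-0750 (480 genes, 3.9%, rose and 9, 0.0732%, fell). At an unadjusted p under 0.05 the count of members was 1 of 8 with JPX-0700, namely KIT, and 0 of 8 with JPX-0750, where 19.6% and 14.2% of all tested genes had such a p. On normalised counts, the members whose treated libraries lay mostly below DMSO were the receptor tyrosine kinases. KIT was below every DMSO library in all 6 treated libraries, and FLT3 was below them in all 3 JPX-0750 libraries and in 2 of the 3 JPX-0700 libraries.

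**Figure D1:**
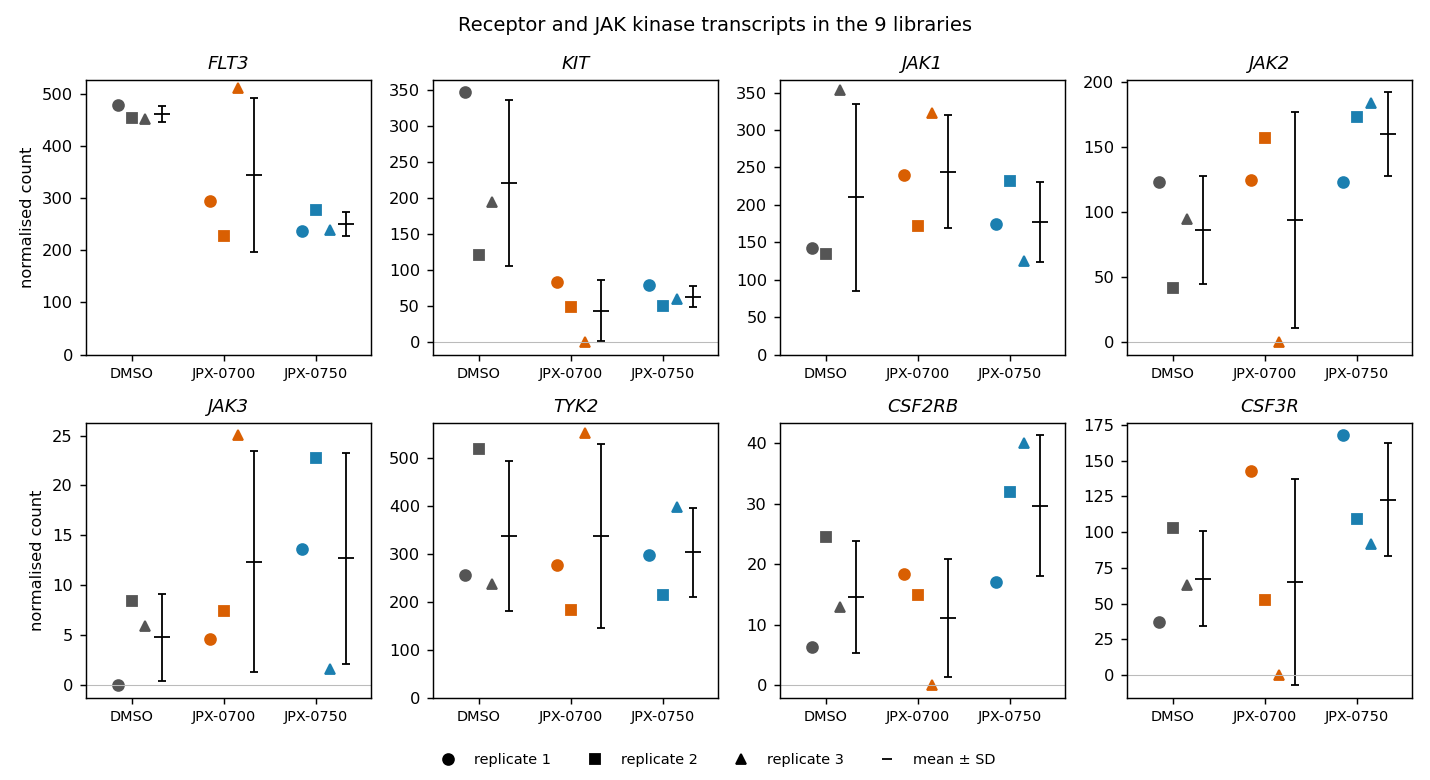
Normalised count of each of the 8 detected genes in the 9 libraries, one panel per gene, with points for DMSO, JPX-0700 and JPX-0750 libraries and bars for mean ± SD (n = 3). The FLT3 points of DMSO lie close together between 452 and 480, and JPX-0700 replicate 3 sits at 0 for KIT, JAK2, CSF2RB and CSF3R.

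FLT3 (chromosome 13, 28003274 to 28100576, minus strand, GRCh38) is the receptor whose duplicated form drives this line. Its normalised counts were 480, 453 and 452 in the 3 DMSO libraries. With JPX-0700 they were 295, 227 and 511, and with JPX-0750 they were 236, 277 and 238. DMSO libraries differed little among themselves (461 ± 15.6, SD, n = 3), the JPX-0750 libraries all lay below them (251 ± 23.2), and the JPX-0700 libraries straddled them (345 ± 148), because replicate 3 was the highest of all 9. On log2(normalised count + 1), the scale of every fold change given here, the difference from DMSO was -0.88 ± 0.49 (SE) with JPX-0750 (95% interval -1.90 to 0.14, adjusted p = 0.434 by limma). The corresponding value for JPX-0700 was -0.50 ± 0.49 (interval -1.53 to 0.52, adjusted p = 0.586). With 3 libraries against 3, an exact permutation test cannot go below p = 0.1, the two-sided value that groups with no overlap reach.

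The FLT3 difference depended on what its reads were set against. The authors' factors give each treated library a larger total than the DMSO libraries, so FLT3 was also expressed as RPM, its reads scaled to a common total of reads on genes. On that scale DMSO libraries had 198, 187 and 208 RPM, JPX-0700 libraries 86.6, 68.4 and 99.3 RPM, and JPX-0750 libraries 64.5, 84.0 and 73.6 RPM. All 6 treated libraries then lay below all 3 DMSO libraries, and the group means were 198 ± 10.2, 84.8 ± 15.6 and 74.1 ± 9.75 (SD, n = 3). The log2 differences from DMSO after scaling to equal totals were -1.23 (adjusted p = 0.112) with JPX-0700 and -1.42 (adjusted p = 0.106) with JPX-0750, which also miss the threshold. That scaling moved the median log2 difference of all tested genes from 0.14 to -0.52 with JPX-0700 and from 0.26 to -0.26 with JPX-0750, and FLT3 stayed below the median under both.

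KIT (chromosome 4, 54657957 to 54740715, plus strand) is the stem cell factor receptor of early haematopoietic cells. DMSO libraries had normalised counts of 347, 121 and 194, resting on 386, 316 and 360 reads. JPX-0700 libraries had 83.0, 48.4 and 0, from 18, 13 and 0 reads. JPX-0750 libraries had 78.7, 50.02 and 60.0, from 23, 11 and 36 reads. The lowest DMSO library thus exceeded the highest treated one for each compound, and the same held in RPM. DMSO libraries themselves spread widely (221 ± 115, SD, n = 3), against 43.8 ± 41.7 with JPX-0700 and 62.9 ± 14.6 with JPX-0750.

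The log2 difference of KIT was -3.65 ± 1.27 (SE) with JPX-0700 (95% interval -6.33 to -0.98, adjusted p = 0.1103 by limma) and -1.69 ± 1.27 with JPX-0750 (interval -4.36 to 0.99, adjusted p = 0.579). The size of the first value rests on JPX-0700 replicate 3, the library with 0 reads of KIT. Without that library the JPX-0700 difference was -1.65 (adjusted p = 0.0951), and that of JPX-0750, unchanged at -1.69, had an adjusted p of 0.0648. Leaving out the 3 libraries that detected the fewest genes gave -1.26 (adjusted p = 0.0854) and -1.27 (adjusted p = 0.0839). Leaving out JPX-0700 replicate 1 instead gave -4.85 with an adjusted p of 0.0427, the only one of the 19 alternatives under which a member passed. Counting all reads of a group against its scaled depth, KIT stood at 0.193 of DMSO with JPX-0700 (exact 95% interval 0.130 to 0.275). The value with JPX-0750 was 0.331 (0.256 to 0.421). The JPX-0700 value includes replicate 3, the deepest library of that group, with 0 reads of KIT, and was not computed without it. The interval also left out 1 for FLT3, JAK1 and CSF3R with each compound, for JAK3 with JPX-0700, and for JAK2 and CSF2RB with JPX-0750. It held 1 for TYK2 with each compound, for JAK2 and CSF2RB with JPX-0700, and for JAK3 with JPX-0750. Such intervals, some above 1 and some below, do not set KIT apart. These intervals take each read as independent and leave out the spread between libraries. Reads carry no molecular identifiers according to the protocol text, so the intervals may be too narrow even for counting error. In bulk RNA, fewer cells expressing a receptor and less of its RNA per cell cannot be told apart.

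**Figure D2:**
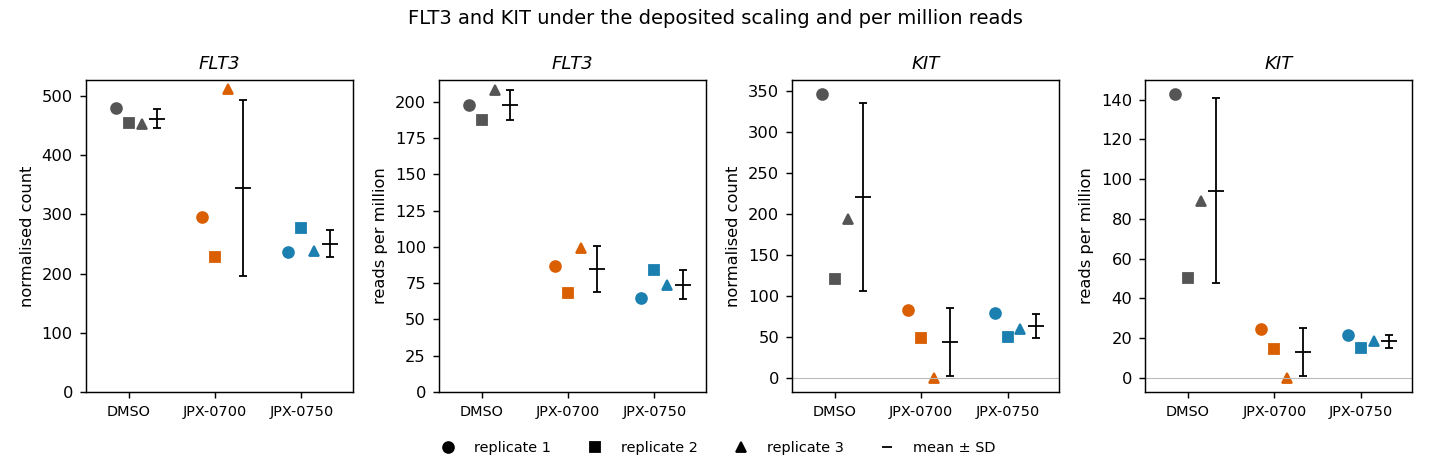
FLT3 and KIT in the 9 libraries as normalised counts and as RPM (reads scaled to a common total), with mean ± SD (n = 3) beside the points of each group. On the second scale every treated library is below every DMSO library for both genes, while as normalised counts FLT3 in JPX-0700 replicate 3 (511) is above DMSO.

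On normalised counts, groups that did not overlap with DMSO were found for 1 of 8 members with JPX-0700 (KIT, lower) and for 3 of 8 with JPX-0750 (FLT3 and KIT lower, JAK2 higher). The background over all tested genes was 26.9% with JPX-0700 and 28.9% with JPX-0750, with 10.3% and 9.18% of genes lower. In RPM the count was 2 of 8 for each compound, FLT3 and KIT in both cases, against 31% and 32.1% of all tested genes, and 21% and 19.3% lower. The number of members without overlap was thus near what the whole table gave.

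CSF2RB (chromosome 22, 36913628 to 36940439) is the common signalling chain of the GM-CSF, IL-3 and IL-5 receptors. It was weakly detected, at 6.29, 24.5 and 12.9 normalised counts in DMSO libraries. JPX-0700 libraries had 18.4, 14.9 and 0, which rest on 4, 4 and 0 reads, and JPX-0750 libraries had 17.1, 31.8 and 40.0. The groups overlapped, with log2 differences of -1.02 ± 1.46 (adjusted p = 0.724) and 1.08 ± 1.46 (adjusted p = 0.782), the first of which was 0.36 without JPX-0700 replicate 3.

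CSF3R (chromosome 1, 36466043 to 36483314, minus strand), the G-CSF receptor of the granulocyte lineage, had 36.8, 103 and 63.0 normalised counts in DMSO libraries. Values with JPX-0700 were 143, 52.2 and 0, so that this group held both a library above all DMSO libraries and one without a read. Values with JPX-0750 were 168, 109 and 91.6, of which the lowest lay inside the DMSO range. Log2 differences were -1.68 ± 1.36 (adjusted p = 0.508) with JPX-0700 and 0.93 ± 1.36 (adjusted p = 0.803) with JPX-0750. Without JPX-0700 replicate 3 the JPX-0700 value was 0.47.

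CSF2RA (chromosome X, 1268814 to 1325218) and IL3RA (chromosome X, 1336785 to 1382689) are the ligand-binding chains that pair with CSF2RB. Neither had a read in any of the 9 libraries, among 20263288 reads on genes, where a count of 0 allows up to 3 reads. Both lie in the pseudoautosomal region PAR1, and the GENCODE annotation of GRCh38 lists them on X and on Y with identical exon coordinates, over 19 transcripts of CSF2RA and 3 of IL3RA. Of 13 PAR1 genes in the table, 12 were at 0 everywhere, among them CD99, a surface protein, and SLC25A6, a mitochondrial ADP/ATP carrier expressed in most cells. The other one, PPP2R3B, had 26 reads. The treatment of reads that map to several places was not given in the sources used here, and its part in these zeros was not tested. No level, fold or absence of expression is therefore stated for either gene.

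JAK1 (chromosome 1, 64833229 to 65067746, minus strand) serves interferon, IL-6 type and common gamma chain receptors. Its normalised counts were 142, 135 and 354 in DMSO libraries, 240, 171 and 322 under JPX-0700 and 175, 232 and 125 under JPX-0750. The 3 groups overlapped throughout, DMSO replicate 3 being the highest of the 9 libraries. Log2 differences were 0.32 ± 0.59 (adjusted p = 0.788) and -0.14 ± 0.59 (adjusted p = 0.941). In RPM the JAK1 means were 92.3 in DMSO, 61.5 under JPX-0700 and 52.2 under JPX-0750, with overlapping groups.

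TYK2 (chromosome 19, 10350533 to 10380572, minus strand) pairs with JAK1 or JAK2 on interferon and IL-12 type receptors. DMSO libraries had 257, 519 and 238 normalised counts, JPX-0700 libraries 277, 183 and 553, and JPX-0750 libraries 298, 214 and 398. Group means were close, 338 ± 157, 337 ± 193 and 303 ± 92.3 (SD, n = 3), and each treated group spanned values below and inside or above the DMSO range. The log2 differences were -0.06 ± 0.56 (adjusted p = 0.966) and -0.11 ± 0.56 (adjusted p = 0.951). In RPM the TYK2 means were further apart, 143 ± 61.7 in DMSO, 81.2 ± 26.2 under JPX-0700 and 89.7 ± 30.1 under JPX-0750. The groups still overlapped.

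JAK2 (chromosome 9, 4984390 to 5129948, plus strand) is the kinase of CSF2RB and of the erythropoietin and thrombopoietin receptors. It had 123, 41.4 and 94.2 normalised counts in DMSO libraries and 123, 173 and 183 under JPX-0750. The JPX-0750 libraries lay above DMSO, though the lowest of them and the highest DMSO library were almost equal (123.2 and 123.0), and in RPM the groups overlapped. With JPX-0700 the counts were 124, 157 and 0, from 27, 42 and 0 reads. JAK2 differed from DMSO by 0.997 ± 1.38 on the log2 scale with JPX-0750 (adjusted p = 0.788) and by -1.55 ± 1.38 with JPX-0700 (adjusted p = 0.549). The latter sign turned without JPX-0700 replicate 3, to 0.82.

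JAK3 (chromosome 19, 17824782 to 17847982, minus strand) works with the common gamma chain and is mainly a lymphoid kinase. It was the least abundant detected member, with 0, 22 and 11 reads in DMSO libraries, 1, 2 and 9 under JPX-0700 and 4, 5 and 1 under JPX-0750. Its normalised counts were 0, 8.44 and 5.92 in DMSO libraries, 4.61, 7.45 and 25.0 under JPX-0700, and 13.7, 22.7 and 1.67 under JPX-0750. The groups overlapped, and log2 differences of 1.41 ± 1.52 (adjusted p = 0.627) and 1.28 ± 1.52 (adjusted p = 0.746) were smaller than their standard errors. A change in JAK3 was not called, and the part of depth in this was not tested.

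**Figure D3:**
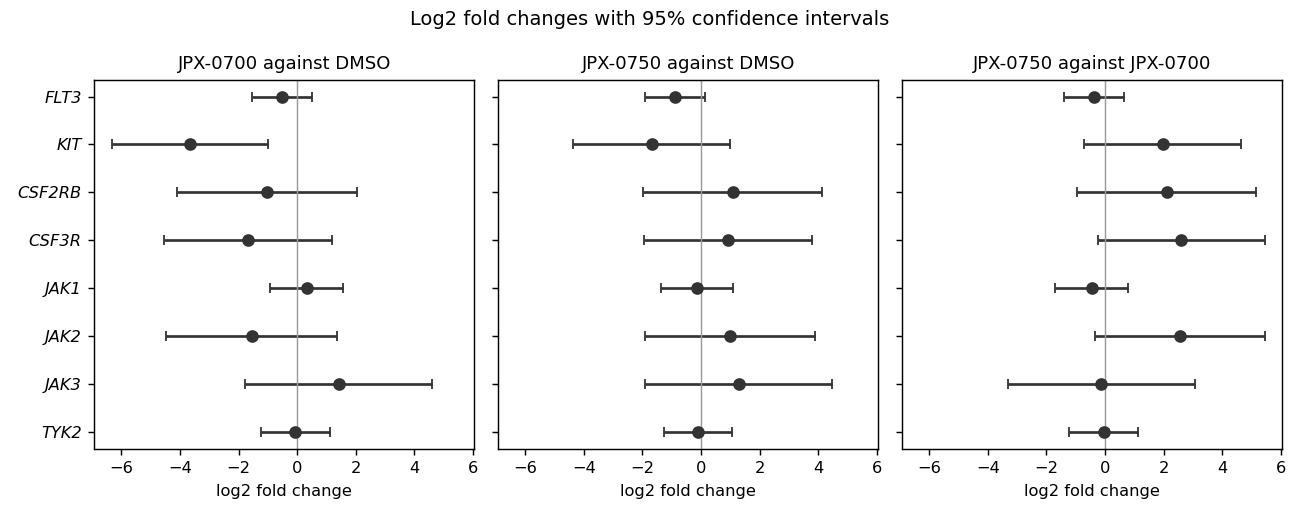
Log2 fold change of the 8 detected genes for each compound against DMSO and for JPX-0750 against JPX-0700, with 95% intervals from limma and a line at 0. Only the interval of KIT with JPX-0700 (-6.33 to -0.98) leaves out 0, and the intervals of JAK3, CSF2RB, CSF3R and JAK2 are the widest.

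KIT, JAK2, CSF2RB and CSF3R, 4 of the 8 detected members, had 0 reads in JPX-0700 replicate 3. It was the deepest JPX-0700 library, with 1852375 reads on genes against 739418 and 891990 in its partners. JPX-0750 replicate 3 was likewise the deepest of its group, with 1941860 against 1069328 and 726043. At the mean level of JPX-0700 replicates 1 and 2, JPX-0700 replicate 3 would have held 23.6 reads of KIT, 50.6 of JAK2, 35.1 of CSF3R and 5.999 of CSF2RB. The other members, FLT3, JAK1, TYK2 and JAK3, were at their highest JPX-0700 value in the same library, so it held either no read or the most of every member. Among all genes with at least 100 normalised counts in both partner libraries, 125 of 3958 (3.16%) had 0 reads there. The corresponding count was 47 of 4209 (1.12%) in JPX-0750 replicate 3 and 0 in the other 7 libraries. Log2 values across genes correlated at 0.611 and 0.623 between this library and its partners, and at 0.843 between the partners, as a description across genes, which are not independent replicates.

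**Figure D4:**
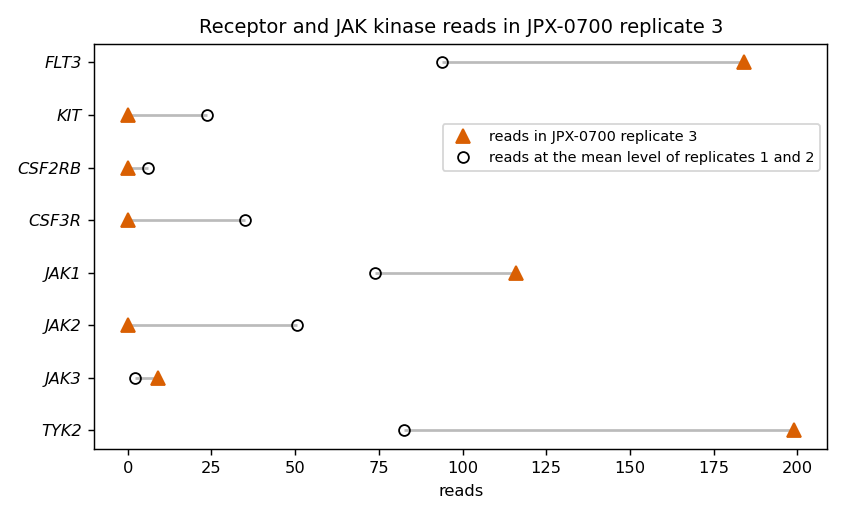
Reads of the 8 detected genes in JPX-0700 replicate 3, beside the reads that library would hold at the mean normalised count of JPX-0700 replicates 1 and 2. KIT, JAK2, CSF3R and CSF2RB have 0 reads against 23.6, 50.6, 35.1 and 5.999, and FLT3, TYK2, JAK1 and JAK3 lie above their partner values.

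Between the compounds, 8 members were compared at the same time point, with p-values adjusted over all 12301 genes. No member was called by limma or limma-voom and 0 had an unadjusted p under 0.05, against a background of 0% of genes called, and 395 genes (3.21%) with an unadjusted p under 0.05. With a replicate block by number over all 9 libraries, DMSO included, CSF3R had an unadjusted p under 0.05 (2.605, 95% interval 0.054 to 5.16, adjusted p = 0.866), as did 3.47% of all tested genes. No fit paired only the libraries of the 2 compounds. JPX-0750 and JPX-0700 overlapped for all 8, where 8.35% of all tested genes did not overlap (3.63% lower with JPX-0750). In RPM all 8 overlapped too, against 8.26% of genes that did not (3.15% lower). CSF3R differed by 2.605 (95% interval -0.25 to 5.46), JAK2 by 2.55 (-0.35 to 5.46), CSF2RB by 2.10 (-0.96 to 5.16) and KIT by 1.97 (-0.71 to 4.64) on the log2 scale, JPX-0750 minus JPX-0700, each with an adjusted p of 0.848. These are the 4 members without a read in JPX-0700 replicate 3. Without that library the differences were 0.45 for CSF3R, 0.17 for JAK2, 0.72 for CSF2RB and -0.036 for KIT. FLT3 differed by -0.38 (-1.40 to 0.65, adjusted p = 0.895). The intervals are wide, and a p above the threshold does not show that the compounds act alike.

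Levels of different genes were ordered per kilobase of the longest coding transcript, with the reservation that 3′ reads do not spread over a transcript. In DMSO the order of the normalised count per kilobase was FLT3 (120), TYK2 (77.7), KIT (42.5), JAK1 (41.6), CSF3R (19.5), JAK2 (16.3), CSF2RB (2.999) and JAK3 (0.881). Neighbours in this order overlapped between libraries except JAK2 and CSF2RB. KIT stood in place 3 with DMSO and in place 6 with each compound, at 8.45 per kilobase with JPX-0700 and 12.1 with JPX-0750. With JPX-0750, TYK2 (69.8) and FLT3 (65.2) led and overlapped each other, and FLT3 did not overlap the next gene, CSF3R (35.6). With JPX-0700 all neighbours among the 8 overlapped. Without division by length, JAK2 (86.2) stood above CSF3R (67.5) in DMSO, JAK1 did not overlap JAK2 in DMSO or with JPX-0700, and CSF3R did not overlap CSF2RB in DMSO.

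For the 3 most abundant members, the genes with the most similar profile over the 9 libraries were sought among 7240 genes, by the root mean square difference of centred log2 values. For FLT3 they were RPL15 (0.132), GAPDH (0.160) and ARHGAP35 (0.172), where the median gene differed by 1.16. Those of TYK2 were CD164 (0.149), PSMA1 (0.194) and COX7A2L (0.226), and those of JAK1 were DDX42 (0.223), ATAD2 (0.237) and GUF1 (0.252). Group means of GAPDH, a glycolytic enzyme, were 6074, 4995 and 3404 normalised counts in DMSO libraries, JPX-0700 and JPX-0750, in the same order as those of FLT3. GAPDH was chosen for its similar profile in these libraries, so the shared order is no separate result. None of these 9 neighbours was itself a member.

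The members were set beside 96 other genes of the pathway, in 5 lists, of which 73 were tested. With JPX-0700, 1 rose and 2 fell (4.11%, against the background of 5.77%), and with JPX-0750, 1 rose and 0 fell (1.37%, against 3.98%). All of these were among the 24 adaptors and proximal kinases, whose median log2 difference was -0.82 with JPX-0700 and -0.18 with JPX-0750, beside 0.14 and 0.26 for all tested genes. Of the ligands, 2 of 14 were tested, FLT3LG and OSM, and CSF1, CSF3, IL6 and EPO were at 0. None of 21 tested further cytokine receptors, 20 inhibitors and 6 STAT genes was called with either compound by limma, with 4, 6 and 0 of them at an unadjusted p under 0.05 with JPX-0700 and 2, 3 and 0 under JPX-0750, beside 19.6% and 14.2% of all tested genes.

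Among the most abundant genes of those lists, IL6R, the IL-6 binding receptor chain, had 601, 270 and 384 normalised counts in DMSO libraries, 106, 272 and 8.34 under JPX-0700 and 253, 277 and 61.6 under JPX-0750. The groups overlapped, with log2 differences of -2.62 (adjusted p = 0.131) and -1.27 (adjusted p = 0.578). Without JPX-0700 replicate 3 the first was -1.22 (adjusted p = 0.256), without JPX-0700 replicate 2 it passed the threshold at -3.65 (adjusted p = 0.0237), and without JPX-0750 replicate 3 the second was -0.58 (adjusted p = 0.826). The interferon receptor chains IFNAR1 and IFNAR2 differed by -1.34 (adjusted p = 0.378) and 0.93 (adjusted p = 0.615) with JPX-0700, and by 0.080 (adjusted p = 0.978) and -1.10 (adjusted p = 0.643) with JPX-0750. IFNAR1 had 13.9 normalised counts in JPX-0700 replicate 3 beside 134 and 157 in its partners, and differed by -0.25 without that library. IFNAR2 had 8.33 in JPX-0750 replicate 3 beside 233 and 300, and its difference turned to 0.51 without it.

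PTPN1 and PTPN6, tyrosine phosphatases that act on JAK kinases and receptors, differed by -0.12 (adjusted p = 0.915) and -2.64 (adjusted p = 0.141) with JPX-0700, where PTPN6 had 258, 153 and 5.56 normalised counts against 188, 495 and 675 in DMSO libraries. That PTPN6 difference was -0.997 (adjusted p = 0.244) without JPX-0700 replicate 3 and passed the threshold without JPX-0700 replicate 1 (-3.65, adjusted p = 0.0435). With JPX-0750 the same genes differed by -0.40 (adjusted p = 0.748) and -0.78 (adjusted p = 0.765). PIAS1, a SUMO ligase that inhibits STAT signalling, differed by 0.83 (adjusted p = 0.434) and 0.67 (adjusted p = 0.636) with the 2 compounds.

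STAT6 and STAT3, among the most abundant STAT genes, had mean normalised counts of 158 and 165 in DMSO libraries. STAT6 differed by 0.70 (adjusted p = 0.523) with JPX-0700 and 0.88 (adjusted p = 0.523) with JPX-0750, and STAT3 by -0.26 (adjusted p = 0.891) and -0.26 (adjusted p = 0.921). Leaving out the 3 libraries that detected the fewest genes, STAT6 rose with JPX-0750 by 1.46 (adjusted p = 0.0313), and STAT3 changed sign, to 0.88 (adjusted p = 0.216) and 1.09 (adjusted p = 0.131). STAT6 with JPX-0700 was -0.029 with total-sum scaling, and STAT3 was also above 0 without DMSO replicate 1 (0.23 for each compound), without JPX-0700 replicate 3 (0.39 with JPX-0700) and without JPX-0750 replicate 3 (0.60 with JPX-0750). FLT3LG, which encodes the FLT3 ligand, had 35.0, 14.95 and 12.9 normalised counts in DMSO libraries, and reached 208 in JPX-0700 replicate 3 beside 23.0 and 11.2 in its partners (difference 0.98, adjusted p = 0.695, and -0.23 without that library). With JPX-0750 it differed by 0.062 (adjusted p = 0.991). OSM, a cytokine of the IL-6 family, had means of 3.25, 10.8 and 2.28 normalised counts in DMSO, JPX-0700 and JPX-0750, and THPO, encoding thrombopoietin, had reads in only 2 libraries, both treated, and was too low to test.

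SOS2, a guanine nucleotide exchange factor that couples receptors to RAS, had 73.6, 49.1 and 148 normalised counts in DMSO libraries, 548, 388 and 1223 under JPX-0700 and 483, 400 and 277 under JPX-0750. Every treated library was above every DMSO library. SOS2 rose by 2.96 ± 0.59 (SE) on the log2 scale with JPX-0700 (adjusted p = 0.00405 by limma) and by 2.20 ± 0.59 with JPX-0750 (adjusted p = 0.0416). The first call held under all alternatives, and the second was lost under 9, with adjusted p values of 0.0537 to 0.224, among them leaving out DMSO replicate 1 (0.147) or 2 (0.218), JPX-0700 replicate 1 (0.0543) or any JPX-0750 library.

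PIK3CD, the leukocyte catalytic subunit of PI3 kinase, had 1025, 831 and 290 normalised counts in DMSO libraries, 92.2, 123 and 66.7 under JPX-0700 and 137, 327 and 373 under JPX-0750. It fell by 2.77 ± 0.61 on the log2 scale with JPX-0700 (adjusted p = 0.00975), a call lost without DMSO replicate 1 (0.0867) or 2 (0.0728). JPX-0750 overlapped DMSO, with a difference of -1.29 ± 0.61 (adjusted p = 0.349).

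GRB2, the adaptor that recruits SOS proteins to activated receptors, was the most abundant of the list. Its normalised counts were 1712, 1374 and 2100 in DMSO libraries, 1051, 932 and 511 under JPX-0700 and 633, 796 and 706 under JPX-0750. All treated libraries were below all DMSO libraries for GRB2, yet the differences of -1.10 ± 0.42 (adjusted p = 0.151) and -1.26 ± 0.42 (adjusted p = 0.126) missed the threshold. With total-sum scaling GRB2 passed it for both compounds, at -1.83 (adjusted p = 0.0301) and -1.80 (adjusted p = 0.0433). With JPX-0750 it also passed with only the 2 groups compared (0.0425), without JPX-0700 replicate 3 (0.0239) and when the 3 libraries that detected the fewest genes were left out (0.0395). INPP5D, the lipid phosphatase SHIP1 that opposes PI3 kinase, differed by -0.83 (adjusted p = 0.479) and -0.76 (adjusted p = 0.626). JPX-0700 libraries overlapped DMSO, and the highest JPX-0750 library (350.2) lay just below the lowest DMSO library (351.0). The JPX-0700 difference of INPP5D was -0.086 without JPX-0700 replicate 1 and -1.49 without JPX-0700 replicate 3.

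**Figure D5:**
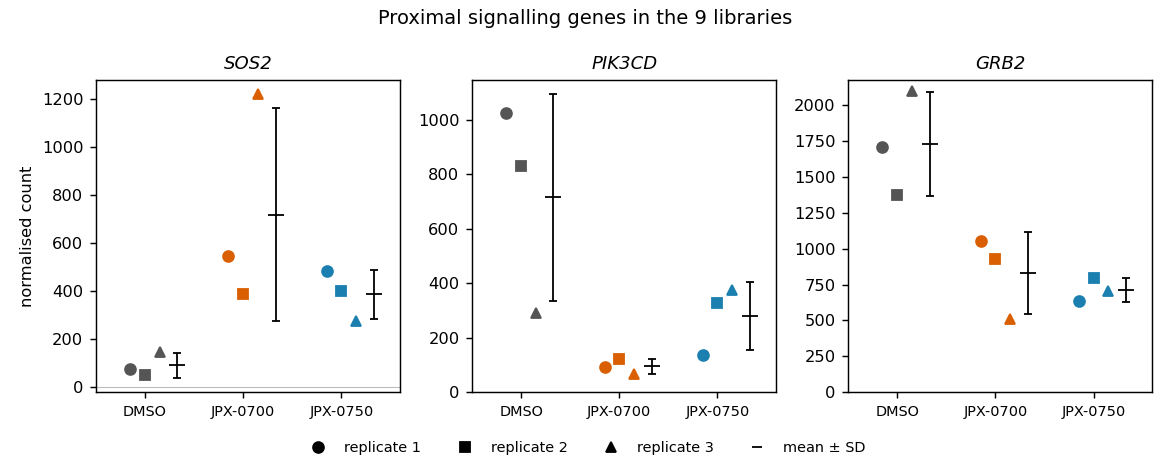
Normalised counts of SOS2, PIK3CD and GRB2 in the 9 libraries, with points per replicate and mean ± SD (n = 3). SOS2 is higher and GRB2 lower in every treated library than in every DMSO library, and PIK3CD is lowest with JPX-0700.

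With the 3 libraries that detected the fewest genes left out, limma called 25.1% of 12524 genes with JPX-0700 and 24.6% with JPX-0750, and still 0 of the 8 members. In the pathway lists 10 rose and 6 fell with JPX-0700, and 9 rose and 3 fell with JPX-0750. SOCS1, a feedback inhibitor that binds JAK kinases, then rose by 4.21 (adjusted p = 0.00581) with JPX-0700 and by 3.38 (adjusted p = 0.0181) with JPX-0750. SOCS3, the inhibitor of IL-6 type and G-CSF receptors, rose by 2.12 (adjusted p = 0.0123) and 2.69 (adjusted p = 0.00301), and CBLB, a ubiquitin ligase for receptors, by 2.44 (adjusted p = 0.00864) and 2.30 (adjusted p = 0.0112). PTPN6, a phosphatase of activated receptors and JAK kinases, fell by 1.54 (adjusted p = 0.0193) with JPX-0700. With all 9 libraries, SOCS1 differed by 3.45 (adjusted p = 0.210) and 3.98 (adjusted p = 0.189), SOCS3 by 2.02 (adjusted p = 0.255) and 2.24 (adjusted p = 0.278), and CBLB by 3.43 (adjusted p = 0.142) and 3.03 (adjusted p = 0.276). These 4 genes were picked out after their values were seen, each treated group then held 2 libraries, and both comparisons share the same DMSO libraries.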

How the data were processed

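QuantSeq 3′ mRNA libraries of MV4-11 cells were sequenced as single reads, per the labels' protocols. The submitters' processing notes list the aligner STAR 2.4.2a, the counter featureCounts 2.0.3, FastQC 0.11.9, SAMtools 1.4, DESeq2 and the build GRCh38. The authors deposited normalised counts per gene symbol, read here as read counts divided by 1 factor per library, because 100% of each library's nonzero values were multiples of its smallest value (tolerance 1e-06). The strand counted and the annotation were not given in the sources used here. Opposite-strand neighbours RAVER2 (JAK1) and INSL6 (JAK2) were near or at 0. The table had 0 columns that belonged to no sample.

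Groups came from the labels. Replicate numbers are in the sample titles. Deviations from the group means correlated at 0.129, 0.171 and 0.190 between same-numbered JPX-0700 and JPX-0750 libraries. Differently numbered ones reached 0.153 (JPX-0700 replicate 2 with JPX-0750 replicate 1) and -0.198 (JPX-0700 replicate 2 with JPX-0750 replicate 3). These values do not settle whether numbers mark pairs, so the replicate block, fitted over all 9 libraries, served only as an alternative. Genes whose mean over all libraries reached 5 were tested on log2(value + 1) with limma 3.58.1 (R 4.3.3), trended moderated variances and a mean per group, two-sided, with Benjamini-Hochberg adjustment over 12301 genes. 14628 genes were left out, 8846 of them at 0 throughout. Only the main limma fit was tried on simulated counts, for JPX-0700 against DMSO, with the same dispersion for every gene. The simulation held no library that lacked genes, as JPX-0700 replicate 3 did, and the alternatives were not simulated. Adding 1 before the logarithm understates folds of low genes that have reads in every library. A library at 0 instead pulls the mean of logarithms far down. With JPX-0700, KIT was 12.6-fold lower by limma and 5.03-fold lower by the ratio of means. JAK2 was 2.94-fold lower by limma, while its ratio of means to DMSO was 1.09. Alternatives changed the pseudocount, filter, scaling, replicate block, groups and libraries. limma-voom and the fit without 3 libraries were added after seeing the data. The members, pathway lists and markers were chosen with earlier results of these data known. Named genes were all members, pathway genes called or among the 3 highest means of their list, and the 3 nearest profiles of the 3 most abundant members, with CD99 and SLC25A6 as PAR1 checks. Some genes that this rule names are not reported here.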

Additional observations from a re-analysis of the deposited data

How the results depend on the processing

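Of 450 refits of the 24 member values (8 genes, 3 comparisons), 424 kept direction and side of the threshold, 25 changed sign and 1, KIT without JPX-0700 replicate 1, passed it. The cause was not tested for any of them. JAK3 and CSF2RB rest on at most 9 and 24 reads in any treated library. The planned count tests on recovered reads were not run, and limma-voom stands in for them. With JPX-0700 the 710 genes called became 373 with only the 2 groups compared, 1299 with voom, 3144 without the 3 libraries with the fewest genes (697 shared), and 389 to 1018 when 1 library was left out. With JPX-0750 the 489 became 795, 945, 3085 (489 shared) and 254 to 1143. Higher and lower calls were 378 and 283 with total-sum scaling, and 510 and 123 with TMM scaling, for JPX-0700, and 304 and 57, and 382 and 25, for JPX-0750. Members called with JPX-0700 ranged from 0 to 1 over the single-library omissions. Pathway genes called with JPX-0700, 3, became 16 without the 3 libraries and 1 to 5 with 1 library left out. With JPX-0750 the 1 gene became 2 at pseudocount 5, 0 without a filter, 0 with TMM, 3 with only the 2 groups, 4 with voom, 12 without the 3 libraries, and 0 to 4 with 1 library left out.

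Signs turned with JPX-0700 for JAK1 (-0.41 with total-sum scaling, -0.11 without the 3 libraries), JAK2 (1.15 without the 3), JAK3 (-0.23) and CSF3R (0.10). Between the compounds they turned for JAK3 (0.046 and 1.44) and TYK2 (0.15 and 0.17) under those 2 settings, and for KIT (-0.015) without the 3. With 1 library left out, values ran with JPX-0700 from -2.83 to 0.82 (JAK2), -0.49 to 0.30 (TYK2), -1.78 to 0.36 (CSF2RB) and -3.11 to 0.47 (CSF3R), with JPX-0750 from -0.38 to 0.31 (JAK1) and -0.33 to 0.25 (TYK2), and between compounds from -0.78 to 0.80 (JAK3), -0.41 to 0.38 (TYK2) and -0.036 to 3.16 (KIT). With a replicate block 694 and 473 genes were called against DMSO (626 and 463 higher) and 0 between the compounds, with 0 members in each, so the block changed no call of a member. Same-numbered treated and DMSO libraries did not deviate together (correlations -0.143 to -0.0436), and the main fit took no numbers as pairs.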
